A study of Mus musculus with 9 samples.

Results

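Transcripts of the mitochondrial respiratory chain were followed across spermatogonial stem cells, putative female germ cells and oocytes of the mouse. The genes were chosen by symbol: names that begin with Nduf, with Sdh and a letter from a to d, with Uqcr, with Cox4 to Cox8 or with Atp5, together with Cycs, Cyc1 and Cyct and without Cox8c. On the array 146 of 45281 probes, for 93 of 19057 named genes, carried such a symbol. Of these 93 genes, 84 had a probe detected (detection p below 0.01) on at least 3 of the 9 arrays and entered the test, which covered 11077 genes in all.

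The study hybridised 9 single-colour Illumina arrays, 3 for each cell type, with RNA from C57BL/6 mice. Spermatogonial stem cells (SSC) had been kept in culture, whereas putative female germ cells (PFGC) and oocytes (Oocyte) were obtained by magnetic sorting. The series title describes SSC differentiating towards a female stem cell state, and the labels name no transgene, drug, sorting antibody, age or tissue of origin for any group. Because nothing says that the replicates came from separate cultures or animals, p-values measure only the spread between arrays, which may be technical. The labels thus leave SSC apart from the other cells in collection as well as in cell type, and the effects of culture and of sorting cannot be told apart from that of cell type.

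The respiratory chain of the inner mitochondrial membrane passes electrons from NADH through complex I, or from succinate through complex II, to ubiquinone, then through complex III, cytochrome c and complex IV to oxygen. Complexes I, III and IV pump protons, and complex V, the ATP synthase, uses the returning protons to make ATP. Most subunits are encoded in the nucleus, a small set of core subunits is encoded by mitochondrial DNA, and the mouse oocyte is known for relying on pyruvate oxidation in its mitochondria.

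Nuclear respiratory factor 1 (NRF1) is a transcription factor known for binding upstream of many genes of the chain, so the 250 bases upstream of the gene start were read for the core of its palindromic element, written CGCATGCG or CGCACGCG. Both strands were searched, overlapping matches included. Windows came from RefSeq on GRCm38.p6, which held at least 1 for 78 of the 93 genes. The core lay in a window of 14 of the 78 genes (17.9%), against 1055 of 27025 genes with a window in all (3.9%). The 27025 include genes that were not tested here, and the share over all tested genes was not counted. An ETS-type element, CCGGAAGT, lay in 3 of the 78 (3.85%) and in 873 of all (3.23%). The NRF1 core was present on both sides of the later comparison: 6 of 35 genes lower in Oocyte than in SSC held it (17.1%), as did 7 of the 36 other tested genes with a window (19.4%). Printed here are the windows of Atp5k, lower in each later comparison, of Cycs, lower in both sorted groups than in SSC, of Ndufaf4, higher in both, and of Cox7a1, which had the largest differences and no match. Atp5k lies on the minus strand at chr5:108434400-108434649, Ndufaf4 on the plus strand at chr4:24897833-24898082, Cox7a1 on the plus strand at chr7:30183921-30184170 and Cycs on the minus strand at chr6:50566570-50566819. Each runs 5′ to 3′ up to the base before the start site, and capitals mark the NRF1 core.
Atp5k: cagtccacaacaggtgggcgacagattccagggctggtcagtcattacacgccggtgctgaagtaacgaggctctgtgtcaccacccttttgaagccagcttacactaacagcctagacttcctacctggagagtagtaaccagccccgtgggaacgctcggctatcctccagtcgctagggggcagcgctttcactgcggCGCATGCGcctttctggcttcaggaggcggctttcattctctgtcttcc
Cycs: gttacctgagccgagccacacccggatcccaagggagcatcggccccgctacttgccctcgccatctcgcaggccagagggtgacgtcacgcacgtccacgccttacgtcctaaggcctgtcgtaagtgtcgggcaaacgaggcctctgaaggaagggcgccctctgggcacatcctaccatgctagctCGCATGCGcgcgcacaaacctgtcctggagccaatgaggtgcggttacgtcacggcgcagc
Ndufaf4: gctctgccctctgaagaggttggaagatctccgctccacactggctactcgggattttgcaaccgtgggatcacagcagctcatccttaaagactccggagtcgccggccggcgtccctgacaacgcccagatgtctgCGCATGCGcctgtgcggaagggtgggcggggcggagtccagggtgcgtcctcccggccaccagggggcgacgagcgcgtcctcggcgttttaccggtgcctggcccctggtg
Cox7a1: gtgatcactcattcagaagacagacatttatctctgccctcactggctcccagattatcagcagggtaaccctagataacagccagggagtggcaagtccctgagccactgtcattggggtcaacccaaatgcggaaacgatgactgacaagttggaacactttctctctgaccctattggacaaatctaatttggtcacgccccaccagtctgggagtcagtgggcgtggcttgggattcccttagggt
Counted from the start site, the core begins at -49 in Atp5k, -61 in Cycs and -112 in Ndufaf4. A match of letters is a description, and binding was not measured here.

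Each level below is the log2 of a gene's background-corrected, quantile-normalised signal on its brightest detected probe, and differences are log2 fold changes from 1 limma fit over the 9 arrays and 11077 genes, two-sided, with Benjamini-Hochberg adjustment over all of them. A gene is called higher or lower where the adjusted p is below 0.05. Total RNA of each sample was compared at one scale, so fewer cells of a type and less RNA per cell cannot be told apart. Between 17631 and 18919 probes were detected per array (38.9% to 41.8%). Mean levels of the marker lists followed the labels: 10 spermatogonial genes averaged 8.52 to 8.92 on the SSC arrays, 6.69 to 6.95 on the PFGC arrays and 5.88 to 6.09 on the Oocyte arrays, while 9 measured oocyte genes averaged 4.92 to 5.17, 9.29 to 9.69 and 10.01 to 10.09. Other cell types also moved with the groups: the mean over 10 Sertoli genes was 11.29 to 11.45 on the SSC arrays, 9.47 to 9.86 on the PFGC arrays and 7.15 to 7.28 on the Oocyte arrays, and 7 measured endothelial genes averaged 6.14 to 6.27, 7.87 to 8.11 and 8.44 to 8.51. In the same order of groups, 9 measured granulosa genes averaged 6.7 to 6.91, 8.53 to 8.79 and 8.84 to 8.9. Of these 9, 7 were called higher and 2 lower than SSC in each sorted group. The part of these other cell types in the differences below was not tested. Of the 84 tested genes, 81 were detected on all 9 arrays. The 9 genes that were not tested were Ndufs1 and Ndufaf6 of complex I, Sdha, Uqcrfs1, Cox7b, Cox7b2, Cox8b, Atp5md and Cyct.

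**Figure D1:**
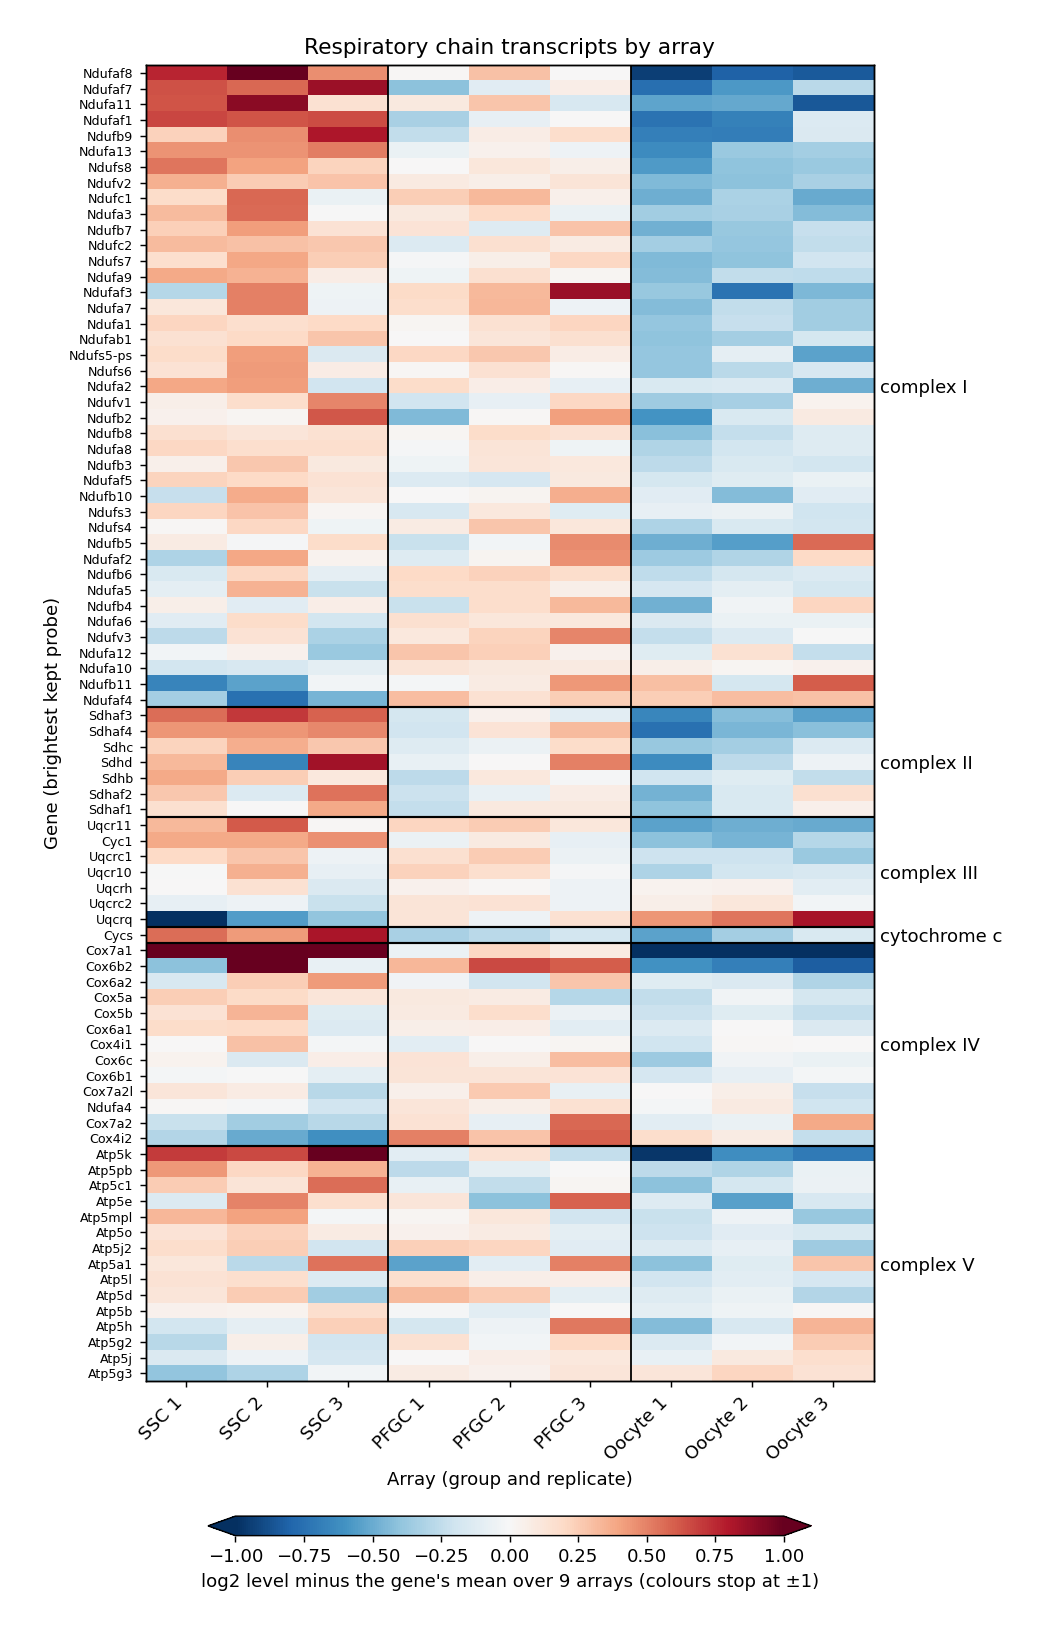
Level of each of the 84 tested genes on each array, as the log2 level minus the gene's mean over the 9 arrays, grouped by complex. The Oocyte columns are bluer than the others through most of complexes I and II.

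Oocytes carried the lowest levels of most of these transcripts. The order of group means was SSC above PFGC above Oocyte in 52 of the 84 genes (61.9%), an order found in 33.5% of all genes tested, and PFGC above SSC above Oocyte in 18 (21.4%), found in 6.04% of all genes. The array medians of the 84 genes, each gene taken relative to its own mean, were 0.144, 0.246 and 0.077 in SSC, 0.021, 0.097 and 0.091 in PFGC, and -0.326, -0.168 and -0.165 in Oocyte. All 3 Oocyte arrays thus lay below the other 6, and SSC and PFGC overlapped, whereas the medians over all genes stayed between -0.022 and 0.048. Differences were small for most genes, and 34 of the 84 passed in no comparison. The share of all genes that passed in none was not counted.

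Between Oocyte and SSC, 41 of 84 genes were lower and 5 were higher, or 54.8% called, against 61.7% of all genes tested. Lower calls made up 48.8% of the 84 and 33.1% of all genes, and higher calls 5.95% and 28.6%. Among genes with a mean level of at least 11, where 52 of the 84 lie, 28 of the 52 were lower and 1 was higher, against 30.5% and 27.8% of all genes this bright. The median difference was -0.37 over the 84 genes and -0.07 over all genes, and 71 of the 84 differences were negative. All 3 Oocyte arrays lay below all 3 SSC arrays in 44 genes, against 35.3% of all genes. Without normalisation between arrays 18 genes were lower (21.4%) and 6 higher (7.14%), against 22.7% and 30.3% of all genes. Lower calls then made up no larger a share than among all genes. The median was -0.19 over the 84 and 0.08 over all genes. The 5 higher calls fell to 3 without Oocyte replicate 1 or without SSC replicate 1.

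Between PFGC and SSC the chain differed less: 12 of 84 genes were lower and 7 higher, or 22.6%, against 52.1% of all genes (27.7% lower, 24.5% higher). The median difference was -0.08 over the 84 genes and -0.06 over all genes. Of the 52 genes with a mean level of at least 11, 6 were lower and 3 higher, against 22.2% and 24.2% of all genes this bright. Arrays of the groups did not overlap in 23 genes lower in PFGC (31.3% of all genes) and in 12 higher in PFGC (26.9% of all genes). With the replicate number as a block 19 genes were lower (22.6%), against 32.8% of all genes. The 7 higher calls became 3 without Oocyte replicate 1, PFGC replicate 3 or SSC replicate 1, and 4 without Oocyte replicate 2, PFGC replicate 1 or PFGC replicate 2.

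Between Oocyte and PFGC, the 2 sorted groups, 16 of 84 genes were lower in Oocyte (19.0%), against 12.3% of all genes called and 7.97% lower. Of the 84, limma called 0 higher (1 at an unadjusted p below 0.05), against 4.32% of all genes. Of the 52 brighter genes 9 were lower and 0 higher (0 also at an unadjusted p below 0.05), against 6.95% and 0.965% of all genes this bright. The median difference was -0.28 over the 84 genes and 0.01 over all genes, and 78 of the 84 were negative. All 3 Oocyte arrays lay below all 3 PFGC arrays in 44 genes, against 19.7% of all genes. With the replicate number as a block 30 genes were lower and 1 higher, against 12.2% and 8.93% of all genes. The number of lower calls rested on single arrays: it was 2 without Oocyte replicate 1 or Oocyte replicate 2, 3 without PFGC replicate 2, 6 without PFGC replicate 3 and 9 without Oocyte replicate 3. In this order of arrays lower calls were then 2.38%, 2.38%, 3.57%, 7.14% and 10.7% of the 84, against 3.85%, 4.11%, 3.63%, 5.04% and 5.71% of all genes, so without either of the first 2 Oocyte arrays or without PFGC replicate 2 the share was no higher than that of all genes. Cox7a1 and Ndufaf8 were the 2 genes called lower in each of the 9 omissions, and the other 14 lost their call without Oocyte replicate 1 and without Oocyte replicate 2. Without normalisation between arrays 4 genes were lower (4.76%) and 1 higher (1.19%), against 3.8% and 8.29% of all genes. The median of all genes was then 0.24, and the median of the 84 lay 0.27 below it (difference -0.27). The 3 comparisons share arrays, so they are not independent of each other.

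**Figure D2:**
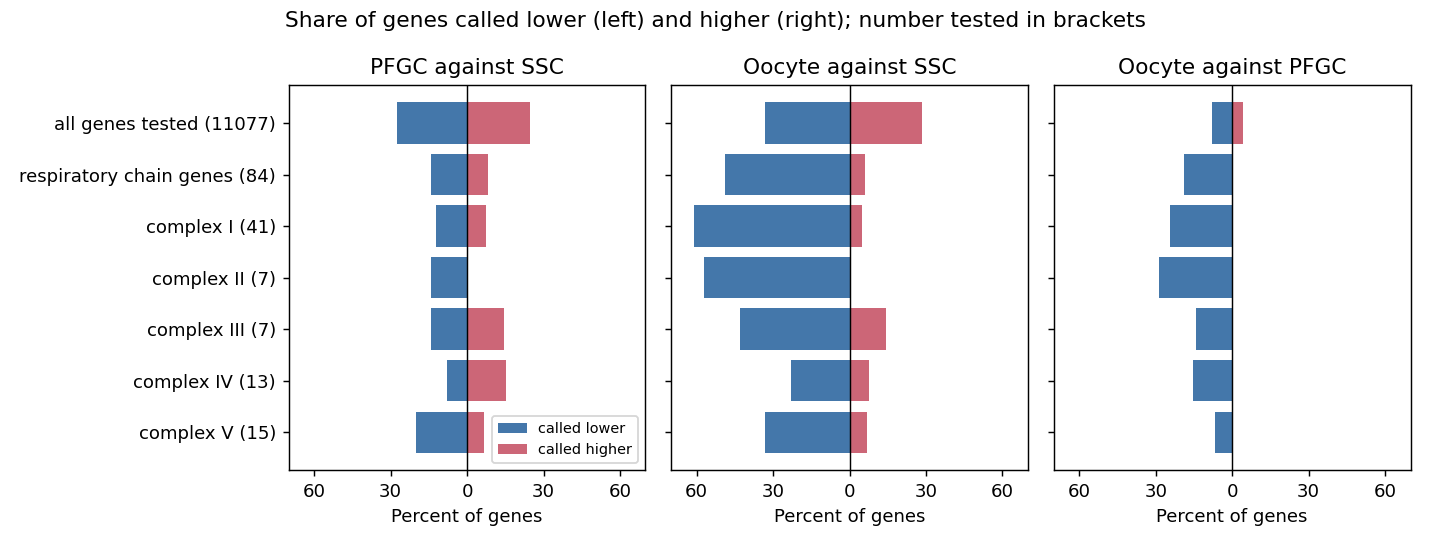
Percent of genes called lower (bars to the left) and higher (bars to the right) at an adjusted p below 0.05 in each comparison, for all genes tested, for the 84 respiratory chain genes and for each complex. Of the 84 genes 48.8% were lower in Oocyte than in SSC, against 33.1% of all genes.

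Complex I is the NADH dehydrogenase. Of its 41 tested genes 25 were lower and 2 higher in Oocyte than in SSC (median -0.46), 10 were lower in Oocyte than in PFGC (median -0.37), and 5 were lower and 3 higher in PFGC than in SSC (median -0.11). Lower calls thus made up 61.0%, 24.4% and 12.2% of the complex, against 33.1%, 7.97% and 27.7% of all genes. Under the replicate block 20 were lower in Oocyte than in PFGC, and 9 were lower and 5 higher in PFGC than in SSC. Block counts here and below stand against 12.2% of all genes lower and 8.93% higher in Oocyte against PFGC. For PFGC against SSC these block shares of all genes were 32.8% and 27.9%, and for Oocyte against SSC 37.2% and 31.7%. Of 5 tested core subunits 4 were lower in Oocyte than in SSC and 3 lower than in PFGC. Ndufs8, an iron-sulfur subunit, read 12.13, 12.0 and 11.82 in SSC, 11.60, 11.71 and 11.65 in PFGC, and 11.03, 11.19 and 11.22 in Oocyte. The groups descended without overlap, with differences of -0.33 ± 0.12 (SE; adjusted p = 0.0359, limma) for PFGC against SSC, -0.84 ± 0.12 (adjusted p = 1.22e-04) for Oocyte against SSC and -0.51 ± 0.12 (adjusted p = 0.0213) for Oocyte against PFGC. The first of these calls was lost in 6 of the 9 omissions of 1 array (SSC 1 or 2, PFGC 1, 2 or 3, or Oocyte 2), with an adjusted p of up to 0.129. The last was lost in 4 (PFGC 2 or 3, Oocyte 1 or 2), with an adjusted p of up to 0.094. Both were also lost without normalisation between arrays.

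Ndufv2, an iron-sulfur subunit of the module that accepts electrons from NADH, read 12.54, 12.44 and 12.47 in SSC, 12.27, 12.24 and 12.31 in PFGC and 11.74, 11.77 and 11.86 in Oocyte. Oocyte lay 0.69 below SSC (-0.69 ± 0.10 SE, adjusted p = 1.46e-04, limma) and 0.48 below PFGC (-0.48, adjusted p = 0.013), while PFGC and SSC differed by -0.21 (adjusted p = 0.0995). Ndufs7, the iron-sulfur subunit next to the ubiquinone site, was -0.61 against SSC (adjusted p = 0.00127) and -0.43 against PFGC (adjusted p = 0.0449) in Oocyte. The Ndufv2 and Ndufs7 calls against PFGC were lost in 2 and 6 of the 9 omissions (adjusted p up to 0.0636 and 0.152). Ndufv1, the NADH-binding subunit, was lower in Oocyte than in SSC by limma (-0.46, adjusted p = 0.0341), a call lost in 4 omissions (SSC 2 or 3, Oocyte 1 or 2) with an adjusted p of up to 0.111. Ndufs3, the remaining core subunit tested, was -0.29 in Oocyte against SSC (adjusted p = 0.0588, limma, or 0.0225 with the replicate number as a block).

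Accessory subunits of complex I surround the core and do not carry electrons. Ndufa13, known also as GRIM-19, read 13.59, 13.59 and 13.65 in SSC, 13.07, 13.18 and 13.09 in PFGC and 12.51, 12.77 and 12.80 in Oocyte. It fell from group to group without overlap, by limma differences of -0.50 (adjusted p = 0.00405) in PFGC and -0.92 (adjusted p = 5.1e-05) in Oocyte against SSC, and -0.42 (adjusted p = 0.0385) in Oocyte against PFGC. Ndufa11, a membrane-arm subunit, read 12.24, 12.51 and 11.76 in SSC, 11.71, 11.89 and 11.45 in PFGC and 11.08, 11.10 and 10.76 in Oocyte. Its Oocyte level was 2.28-fold below SSC (-1.19, adjusted p = 4.36e-04) and 1.63-fold below PFGC (-0.70, adjusted p = 0.0456), and SSC and PFGC arrays overlapped. With the replicate number as a block PFGC was called lower than SSC as well (-0.49, adjusted p = 0.00432). Ndufb9 was 2.01-fold lower in Oocyte than in SSC (-1.0 ± 0.20 SE, adjusted p = 0.00142). The calls on Ndufa13 and Ndufa11 in Oocyte against PFGC were each lost in 7 of the 9 omissions (adjusted p up to 0.143 and 0.164).

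Further accessory subunits were lower in Oocyte than in either other group: Ndufa1 by -0.52 and -0.45 (adjusted p = 0.00156 and 0.0223 against SSC and PFGC), Ndufc1 by -0.67 and -0.65 (adjusted p = 0.00477 and 0.0318), and Ndufab1, the mitochondrial acyl carrier protein, by -0.51 and -0.40 (adjusted p = 0.00223 and 0.0423). Their calls against PFGC were lost in 5, 5 and 6 of the 9 omissions (adjusted p up to 0.0951, 0.119 and 0.148), and without normalisation. Ndufa2, Ndufa3, Ndufa7, Ndufa8, Ndufa9, Ndufb3, Ndufb7, Ndufc2 and Ndufs6 were also lower in Oocyte than in SSC, by values from -0.33 (Ndufb3) to -0.66 (Ndufa3), with calls on Ndufa7 and Ndufb3 that were lost without SSC 2 or Oocyte 1 (adjusted p up to 0.0548 and 0.077). The call on Ndufa2 was lost in 8 of the 9 omissions, all but that of SSC 3 (adjusted p up to 0.151). Ndufs5-ps, which the annotation names as a pseudogene, was -0.49 (adjusted p = 0.0245, limma), a call lost without SSC 1 or 2 or Oocyte 1 or 3 (adjusted p up to 0.0878), and whether its signal comes from the parent gene was not tested. A few accessory subunits went the other way. Ndufa10 was higher in PFGC than in SSC by 0.25 ± 0.09 (SE; adjusted p = 0.0473, limma) and Ndufv3 by 0.41 ± 0.15 (adjusted p = 0.0454). Both calls depended on single arrays, being lost in 8 and 7 of the 9 omissions with adjusted p of up to 0.118 and 0.15: SSC 3 alone could be left out with the call on Ndufa10 unchanged, and SSC 2 or PFGC 1 with that on Ndufv3. Ndufb11 was higher in Oocyte than in SSC by 0.65 ± 0.23 (adjusted p = 0.0301), a call lost without SSC 1 or 2 or Oocyte 1 or 3 (adjusted p up to 0.109). Ndufb8 had probes that disagreed: its brighter probe was lower in Oocyte than in SSC by limma (-0.41, adjusted p = 0.00932), and a dimmer probe, detected on 8 arrays, was higher (0.53, adjusted p = 0.0331 in a fit over probes).

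Assembly factors insert cofactors and join modules but stay out of the finished enzymes. Of 11 tested for complexes I and II, 6 were lower and 1 higher in Oocyte than in SSC, 4 were lower in Oocyte than in PFGC, and 4 were lower and 1 higher in PFGC than in SSC. In this order lower calls were 54.5%, 36.4% and 36.4% of the 11, against 33.1%, 7.97% and 27.7% of all genes. Ndufaf8, which acts with Ndufaf5 on the core subunit Ndufs7, read 9.96, 10.26 and 9.66 in SSC, 9.21, 9.49 and 9.20 in PFGC and 8.26, 8.39 and 8.36 in Oocyte. The groups did not overlap, and Oocyte lay 3.08-fold below SSC (-1.63 ± 0.16 SE, adjusted p = 9.43e-06, limma) and 1.95-fold below PFGC (-0.96, adjusted p = 0.00449), with PFGC 1.58-fold below SSC (-0.66, adjusted p = 0.00554). Ndufaf5 itself was -0.31 in Oocyte against SSC (adjusted p = 0.0293), a call lost without SSC 1 or 2 or Oocyte 1 or 2 (adjusted p up to 0.0891).

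Ndufaf1, part of the intermediate assembly complex, read 9.90, 9.86 and 9.89 in SSC, 8.91, 9.15 and 9.24 in PFGC and 8.50, 8.56 and 9.10 in Oocyte. SSC stood above both sorted groups, by 1.72-fold over PFGC (-0.79, adjusted p = 0.00253, limma) and 2.24-fold over Oocyte (-1.16, adjusted p = 1.43e-04), and the sorted groups overlapped. Ndufaf7, an assembly factor with methyltransferase activity, showed the same arrangement, with -0.84 (adjusted p = 0.00178) in PFGC and -1.22 (adjusted p = 1.1e-04) in Oocyte against SSC. With the replicate number as a block Ndufaf7, unlike Ndufaf1, was also lower in Oocyte than in PFGC (-0.38, adjusted p = 0.0354). Ndufaf3, an early assembly factor, was lower in Oocyte than in PFGC by limma (-0.98 ± 0.23 SE, adjusted p = 0.0236), a call lost in 5 of the 9 omissions (adjusted p up to 0.0876). It was -0.57 in Oocyte against SSC (adjusted p = 0.0505). Its partner Ndufaf4 read 10.52, 10.11 and 10.39 in SSC, 11.17, 11.01 and 11.10 in PFGC and 11.10, 11.17 and 11.15 in Oocyte. Both sorted groups lay above SSC, by 1.69-fold (0.76, adjusted p = 5.61e-04) and 1.74-fold (0.80, adjusted p = 2.77e-04), and differed from each other by 0.04 (adjusted p = 0.852).

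**Figure D3:**
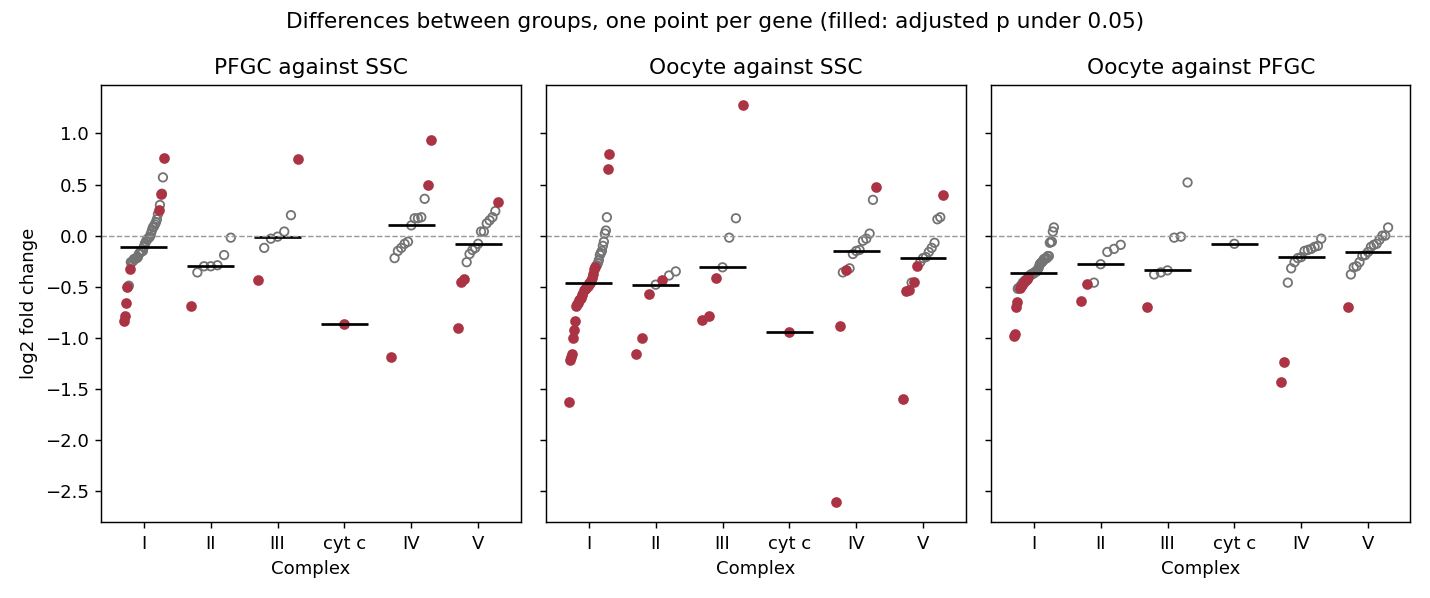
Log2 fold change of each tested gene, arranged by complex, in the 3 comparisons, with filled points for an adjusted p below 0.05 and a bar at the median of each complex. In Oocyte against SSC the medians were -0.46 for complex I and -0.48 for complex II, against -0.15 for complex IV and -0.22 for complex V.

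Complex II, the succinate dehydrogenase that also serves the citric acid cycle, had 7 tested genes. Of these 4 were lower in Oocyte than in SSC (median -0.48), 2 lower in Oocyte than in PFGC (median -0.28) and 1 lower in PFGC than in SSC (median -0.30), and no gene of the complex had a higher call by limma, also at an unadjusted p below 0.05. Lower calls were 57.1%, 28.6% and 14.3% of the complex, against 33.1%, 7.97% and 27.7% of all genes, and with the replicate number as a block 3 were lower in PFGC than in SSC. Sdhaf3, which helps to mature the iron-sulfur subunit, read 8.93, 9.08 and 8.96 in SSC, 8.20, 8.42 and 8.27 in PFGC and 7.72, 7.95 and 7.83 in Oocyte. Each group lay apart from the next: PFGC was -0.69 (adjusted p = 5.53e-04, limma) and Oocyte -1.16 (adjusted p = 1e-05) against SSC, and Oocyte was -0.47 (adjusted p = 0.0284) against PFGC. Sdhaf4, a chaperone of the flavoprotein subunit, read 10.59, 10.59 and 10.63 in SSC, 9.96, 10.29 and 10.47 in PFGC and 9.40, 9.69 and 9.73 in Oocyte. It was 2.0-fold lower in Oocyte than in SSC (-1.0, adjusted p = 2.01e-04) and 1.55-fold lower than in PFGC (-0.64, adjusted p = 0.0233). The Sdhaf3 and Sdhaf4 calls in Oocyte against PFGC were lost in 5 and 4 of the 9 omissions (adjusted p up to 0.115 and 0.0975).

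The iron-sulfur subunit Sdhb was lower in Oocyte than in SSC by limma (-0.43 ± 0.13 SE, adjusted p = 0.0131), with an adjusted p of 0.0522 without SSC replicate 1. The membrane anchor Sdhc was -0.57 in the same comparison (adjusted p = 0.0023). The catalytic flavoprotein subunit Sdha, like the complex I subunit Ndufs1, had no probe that passed the detection limit and was not tested. Cox8a, Atp5g1 and Ndufa4l2 had no probe under these symbols.

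Complex III, the cytochrome bc1 complex, had calls in both directions, as complexes I, IV and V had, with Uqcrq alone called higher. Of 7 tested genes 3 were lower and 1 higher in Oocyte than in SSC (median -0.31), 1 was lower in Oocyte than in PFGC (median -0.34), and 1 was lower and 1 higher in PFGC than in SSC (median -0.01). In the same order lower calls were 42.9%, 14.3% and 14.3% of the complex, against 33.1%, 7.97% and 27.7% of all genes. Higher calls were 14.3% of the complex in Oocyte and in PFGC against SSC, against 28.6% and 24.5% of all genes. Under the replicate block 3 were lower and 1 higher in Oocyte than in PFGC. Cyc1, the cytochrome c1 subunit that hands electrons to cytochrome c, read 11.50, 11.50 and 11.58 in SSC, 11.06, 11.21 and 11.04 in PFGC and 10.71, 10.66 and 10.84 in Oocyte. All 9 arrays fell in the order of the groups, with limma differences of -0.43 (adjusted p = 0.00666) in PFGC and -0.79 (adjusted p = 9.66e-05) in Oocyte against SSC, while -0.36 between Oocyte and PFGC had an adjusted p of 0.0512, or 0.0357 with the replicate number as a block. Uqcr11, a small membrane subunit, read 12.99, 13.28 and 12.68 in SSC, 12.88, 12.92 and 12.78 in PFGC and 12.13, 12.18 and 12.16 in Oocyte. Here the low group was Oocyte alone, at -0.83 against SSC (adjusted p = 6.96e-04) and -0.70 against PFGC (adjusted p = 0.015), and SSC and PFGC overlapped. The call against PFGC was lost without PFGC 2, Oocyte 1 or Oocyte 2 (adjusted p up to 0.0645).

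Uqcrq, another small subunit, had the largest rise among the genes called higher in Oocyte against SSC. It read 8.0, 8.52 and 8.68 in SSC, 9.21, 9.03 and 9.23 in PFGC and 9.52, 9.61 and 9.90 in Oocyte. PFGC was 1.69-fold (0.75 ± 0.18 SE, adjusted p = 0.00549, limma) and Oocyte 2.43-fold (1.28, adjusted p = 1.4e-04) above SSC, with no overlap, and the step of 0.52 from PFGC to Oocyte had an adjusted p of 0.0864, or 0.0381 with the replicate number as a block. The core protein Uqcrc1 was -0.41 in Oocyte against SSC (adjusted p = 0.0199), a call lost without SSC 1, SSC 2 or Oocyte 3 (adjusted p up to 0.0675). Uqcrfs1, the Rieske iron-sulfur subunit, was not tested, because its probes were below the detection limit.

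Cytochrome c, the soluble carrier between complexes III and IV that also triggers caspase activation, was represented by the somatic gene Cycs. It read 12.32, 12.19 and 12.58 in SSC, 11.44, 11.49 and 11.58 in PFGC and 11.23, 11.42 and 11.61 in Oocyte. All 6 sorted arrays lay below the 3 SSC arrays, at 1.82-fold lower in PFGC (-0.86 ± 0.14 SE, adjusted p = 4.66e-04, limma) and 1.92-fold lower in Oocyte (-0.94, adjusted p = 1.8e-04). The sorted groups overlapped and differed by -0.08 (adjusted p = 0.74). The testis gene Cyct was not detected on enough arrays to be tested.

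Complex IV, the cytochrome c oxidase, had its calls largely on tissue isoforms. Of 13 tested genes 3 were lower and 1 higher in Oocyte than in SSC (median -0.15), 2 were lower in Oocyte than in PFGC (median -0.21), and 1 was lower and 2 were higher in PFGC than in SSC (median 0.10). Lower calls were 23.1%, 15.4% and 7.69% of the complex, against 33.1%, 7.97% and 27.7% of all genes. With the replicate number as a block 4 were lower and 2 higher in Oocyte than in SSC. Of the ubiquitous subunits, Cox5a alone had a call in Oocyte against SSC without the block (-0.34, adjusted p = 0.0447, limma), lost without any 1 SSC array, PFGC 2, Oocyte 1 or Oocyte 3 (adjusted p up to 0.137). Cox5b was -0.32 in this comparison (adjusted p = 0.0633, or 0.0188 with the replicate number as a block). The dimmer probe of Cox5b was called lower (-0.45, adjusted p = 0.0254, limma over probes). Cox7a1, the isoform of subunit 7a known from heart and skeletal muscle, read 10.15, 10.51 and 9.91 in SSC, 8.86, 9.13 and 9.01 in PFGC and 7.41, 7.69 and 7.62 in Oocyte. These differences were the largest of the 84 genes in each comparison: PFGC lay 2.28-fold below SSC (-1.19 ± 0.16 SE, adjusted p = 1.56e-04, limma), Oocyte 6.12-fold below SSC (-2.61 ± 0.16, adjusted p = 3.3e-07) and 2.69-fold below PFGC (-1.43, adjusted p = 4.41e-04). The mean of the 10 Sertoli genes was 11.29 to 11.45, 9.47 to 9.86 and 7.15 to 7.28 in the same groups. Of the 10, 8 were lower and 1, Rhox5, was higher in PFGC than in SSC (0.68, adjusted p = 0.00856, limma), 9 were lower in Oocyte than in SSC and 7 lower than in PFGC, and Gata4 had no call. Their part in the Cox7a1 difference was not tested.

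The ubiquitous partner Cox7a2 read 6.72, 6.60 and 6.67 in SSC, 7.09, 6.86 and 7.52 in PFGC and 6.84, 6.88 and 7.32 in Oocyte. It was called higher in PFGC than in SSC (0.50 ± 0.18 SE, adjusted p = 0.0438, limma), but not without SSC 1, 2 or 3, PFGC 1 or 3, or Oocyte 1 or 2 (adjusted p up to 0.151). Its difference in Oocyte against SSC was 0.35 (adjusted p = 0.119, or 0.0425 with the replicate number as a block). Cox7a2l, which takes part in joining complexes III and IV, was between -0.13 and 0.10 in the 3 comparisons, with no call.

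Cox6b2, the testis isoform of subunit 6b, read 7.26, 8.67 and 7.59 in SSC, 8.0, 8.33 and 8.27 in PFGC and 7.06, 6.98 and 6.84 in Oocyte. The second SSC array stood above all others, and the Oocyte arrays lay below both other groups. Oocyte was -0.88 ± 0.30 (SE; adjusted p = 0.0256, limma) against SSC and -1.24 ± 0.30 (adjusted p = 0.0262) against PFGC, the first call being lost without Oocyte 2 or 3 (adjusted p up to 0.0671). It was -1.17 against SSC without SSC 1 and -0.46 without SSC 2, and without SSC 2 PFGC was higher than SSC (0.78, adjusted p = 0.00261). The call against PFGC was lost without PFGC 2 or 3 or any 1 Oocyte array (adjusted p up to 0.0976). Of the 12 spermatocyte and spermatid markers 4 were measured, with mean levels of 5.03, 7.78 and 5.07 in SSC, 6.98, 7.26 and 7.21 in PFGC and 5.31, 5.38 and 5.53 in Oocyte. Ldhc, the germ cell lactate dehydrogenase among them, read 5.92, 12.95 and 5.83 in SSC, 12.04, 12.48 and 12.39 in PFGC and 7.94, 8.10 and 8.17 in Oocyte. Pgk2 and Acr also read higher on the second SSC array and the PFGC arrays than on the others. Tnp1 was instead lower in PFGC than in SSC (-0.80, adjusted p = 0.00667, limma), at 4.39 to 4.89 against 5.3 to 5.57. These PFGC levels of Tnp1 were near background, which limits that difference. The part of the markers in the Cox6b2 difference was not tested. The ubiquitous partner Cox6b1 was 0.17 in PFGC and -0.05 in Oocyte against SSC, with adjusted p of 0.167 and 0.683.

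Cox4i2, the isoform of subunit 4 known from lung and from low oxygen, read 4.76, 4.55 and 4.44 in SSC, 5.56, 5.34 and 5.65 in PFGC and 5.23, 5.14 and 4.82 in Oocyte. It was detected on 0 of 3 SSC arrays, 3 of 3 PFGC arrays and 1 of 3 Oocyte arrays, so the SSC value is a bound. On that bound, the lowest detected signal of each array, PFGC was at least 1.19-fold higher than SSC. Because Cox4i2 passed the filter only through the PFGC arrays, where it was high, its calls (higher than SSC in both sorted groups) are a description. The ubiquitous Cox4i1 read 13.50, 13.79 and 13.48 in SSC, 13.39, 13.50 and 13.52 in PFGC and 13.30, 13.51 and 13.50 in Oocyte. Its groups overlapped, with differences of -0.12, -0.15 and -0.03 and adjusted p of 0.434, 0.296 and 0.89 in limma. The pair Cox6a1 and Cox6a2, ubiquitous and muscle forms of subunit 6a, had no call, at -0.18 and -0.36 in Oocyte against SSC (adjusted p = 0.246 and 0.0946), nor had Ndufa4, a subunit named after complex I and now placed in complex IV (0.02, adjusted p = 0.883). Cox7b, Cox7b2 and Cox8b were not tested.

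**Figure D4:**
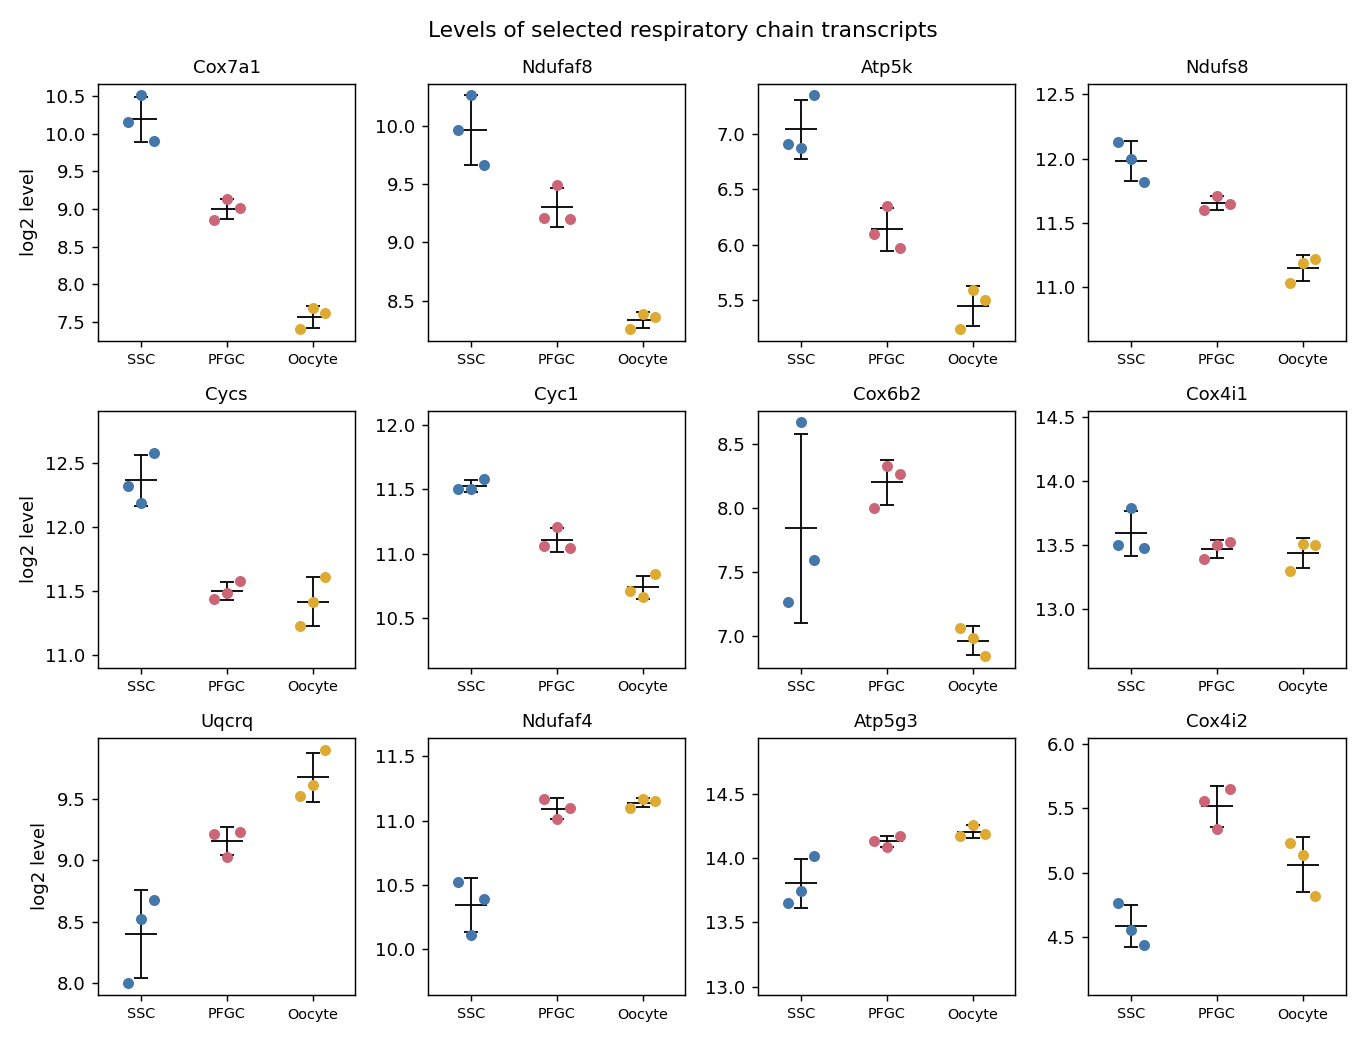
Log2 levels of 12 transcripts on each array, with the mean (bar) and SD (n = 3) of each group; every panel spans at least 2 log2 units and has its own position on the axis. Cox7a1 fell from 9.91 to 10.51 in SSC to 7.41 to 7.69 in Oocyte, Cox4i1 overlapped between groups, and Uqcrq and Ndufaf4 were higher in both sorted groups than in SSC.

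Complex V, the ATP synthase, had 15 tested genes, with 5 lower and 1 higher in Oocyte than in SSC (median -0.22), 1 lower in Oocyte than in PFGC (median -0.16), and 3 lower and 1 higher in PFGC than in SSC (median -0.08). Lower calls were 33.3% of the complex in Oocyte against SSC and 6.67% in Oocyte against PFGC, against 33.1% and 7.97% of all genes, and 3 of 15 in PFGC against SSC, against 27.7%. Under the replicate block 2 were lower in Oocyte than in PFGC. Atp5k, subunit e at the interface of synthase dimers, whose upstream window with the NRF1 core is printed above, read 6.91, 6.87 and 7.35 in SSC, 6.10, 6.35 and 5.97 in PFGC and 5.24, 5.59 and 5.5 in Oocyte. The groups did not overlap, and the limma differences were -0.90 (adjusted p = 0.00117) in PFGC and -1.60 (adjusted p = 1.53e-05) in Oocyte against SSC, and -0.70 (adjusted p = 0.0257) in Oocyte against PFGC. Without background correction these were -0.44, -0.69 and -0.25, and the last call was lost there, with the authors' processed intensity, without normalisation, and without PFGC 1 or 2 or any 1 Oocyte array. Atp5pb, the peripheral stalk subunit b, was lower than in SSC in both sorted groups, by -0.45 (adjusted p = 0.0106) in PFGC and -0.54 (adjusted p = 0.00296) in Oocyte. Its next brightest probe was -0.33 and -0.23 with no call (adjusted p = 0.0811 and 0.189, limma over probes). A dimmer probe was lower in both, at -0.86 and -1.33 (adjusted p = 3.76e-04 and 1.13e-05). Atp5mpl and Atp5o were -0.45 and -0.30 in Oocyte against SSC (adjusted p = 0.0224 and 0.0267), both calls being lost without SSC 1 or 2 or Oocyte 1 or 3, and the latter also without Oocyte 2 (adjusted p up to 0.0789 and 0.0881). Atp5c1, the gamma subunit of the central stalk, was -0.53 (adjusted p = 0.0101) in Oocyte and -0.42 (adjusted p = 0.0374) in PFGC against SSC, the latter call being lost without SSC 1 or 3, PFGC 1 or 2, or Oocyte 2 (adjusted p up to 0.124).

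Atp5g3, a gene for the proton-carrying ring subunit c, read 13.65, 13.74 and 14.02 in SSC, 14.13, 14.09 and 14.17 in PFGC and 14.17, 14.26 and 14.19 in Oocyte. Both sorted groups lay above SSC without overlap, by 0.33 ± 0.12 (SE; adjusted p = 0.0419, limma) and 0.40 ± 0.12 (adjusted p = 0.0138). The PFGC call was lost in 8 of 9 omissions, all but that of SSC 3, with an adjusted p of up to 0.149, and the Oocyte call without SSC 1 (adjusted p = 0.0572). Its paralog Atp5g2, which makes the same mature subunit, was 0.24 and 0.16 against SSC with no call (adjusted p = 0.179 and 0.334). The catalytic subunit Atp5b lay within 0.12 of SSC in both sorted groups (-0.12 and -0.12, adjusted p = 0.33 and 0.319, SE 0.10), and its partner Atp5a1 at -0.18 and -0.22 with an SE of 0.29 (adjusted p = 0.638 and 0.532).

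Across the complexes, 6 genes were lower in all 3 comparisons: Atp5k, Cox7a1, Ndufa13, Ndufaf8, Ndufs8 and Sdhaf3. Only Cox7a1 and Ndufaf8 of them kept the call in Oocyte against PFGC whichever array was left out. How many of all genes were lower in all 3 was not counted, so the 6 are a description. Atp5g3, Ndufaf4 and Uqcrq were called higher than SSC in both sorted groups, as was Cox4i2 with the limit given above. When all 115 detected probes of the 84 genes were fitted, 46 probes were lower and 8 higher in Oocyte against SSC, 14 were lower in Oocyte against PFGC, and 15 were lower and 7 higher in PFGC against SSC. Shares over all detected probes were not counted, so these counts are a description. More than 1 detected probe represented 26 of the genes, and these could differ. The dimmer probe of Atp5j, a peripheral stalk subunit, was higher than SSC by 0.49 in PFGC and 0.68 in Oocyte (adjusted p = 0.0154 and 0.00203, limma over probes), where its brighter probe was 0.18 in each with no call. The dimmer probe of Atp5a1 was lower in PFGC than in SSC (-0.50, adjusted p = 0.0347). The dimmer probe of Cycs was -0.51 and -0.44 against SSC with no call (adjusted p = 0.101 and 0.136).

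Genes that work with the chain were described from further lists, whose counts stand against 27.7% of all genes lower and 24.5% higher in PFGC than in SSC, 33.1% and 28.6% in Oocyte against SSC, and 7.97% and 4.32% in Oocyte against PFGC. Of 13 subunits encoded by mitochondrial DNA 7 were measured, and limma called 0 in any comparison (0 also at an unadjusted p below 0.05), with medians of -0.20 in PFGC and -0.19 in Oocyte against SSC and 0.01 between the sorted groups. With the replicate number as a block, however, ND1 and ATP6 were lower in PFGC than in SSC (adjusted p = 0.0254 and 0.0235) and ATP6 in Oocyte (adjusted p = 0.0114). CYTB, the mitochondrially encoded subunit of complex III, read 14.86, 14.90 and 15.01 in SSC, 14.70, 14.69 and 14.89 in PFGC and 14.75, 14.63 and 14.87 in Oocyte. Of 6 measured complex I assembly factors with other symbols 5 were lower in PFGC and 5 in Oocyte against SSC, and 1 was lower in Oocyte than in PFGC. Timmdc1, which helps to build the membrane arm, read 7.33, 6.67 and 7.30 in SSC, 6.28, 6.32 and 6.74 in PFGC and 5.51, 5.30 and 5.60 in Oocyte. It was -0.66 (adjusted p = 0.0179, limma) and -1.63 (adjusted p = 4.58e-05) against SSC and -0.98 (adjusted p = 0.0126) between the sorted groups. Ecsit, of the same intermediate complex as Ndufaf1, was -1.11 and -1.41 against SSC (adjusted p = 0.00567 and 0.00102).

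Assembly factors of complexes III, IV and V outside the symbol rule numbered 20 measured genes, with 6 lower and 1 higher in PFGC, and 9 lower and 1 higher in Oocyte, against SSC, and 1 lower in Oocyte than in PFGC. Under the replicate block 2 were higher in PFGC than in SSC and 3 lower in Oocyte than in PFGC. Atpaf2, which assembles the catalytic head of the synthase, was -0.58 and -1.07 against SSC (adjusted p = 0.00917 and 1.52e-04, limma), and Cox14, of complex IV assembly, was -0.64 in Oocyte against PFGC (adjusted p = 0.00597). Among 12 measured genes of ubiquinone synthesis and electron feed, 2 were higher and 3 lower than SSC in each sorted group, or 5 lower in Oocyte with the replicate number as a block. Coq7, the hydroxylase of ubiquinone synthesis, was -1.08 in PFGC and -1.57 in Oocyte (adjusted p = 9.18e-06 and 3.71e-07), whereas Gpd2, the glycerol phosphate dehydrogenase that feeds ubiquinone, was 1.01 and 1.30 (adjusted p = 2.77e-04 and 3.04e-05).

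The citric acid cycle supplies the chain with NADH. Of 14 measured genes, the pyruvate dehydrogenase subunits included, 6 were higher and 0 lower in PFGC than in SSC (limma, 0 lower also at an unadjusted p below 0.05), and 6 were higher and 1 lower in Oocyte than in SSC. Under the replicate block Suclg1, of succinyl-CoA ligase, was also lower, in PFGC (-0.23, adjusted p = 0.0428) and in Oocyte (-0.34, adjusted p = 0.00697). Pdha1, the pyruvate dehydrogenase subunit, read 9.46, 9.42 and 9.62 in SSC, 10.58, 10.57 and 10.33 in PFGC and 10.30, 10.37 and 10.25 in Oocyte, 1.99-fold (0.99, adjusted p = 4.84e-05) and 1.75-fold (0.81, adjusted p = 1.46e-04) above SSC. Idh3a, of isocitrate dehydrogenase, was 0.74 and 0.79 above SSC (adjusted p = 0.0015 and 7.86e-04). Of 7 measured genes of ATP export and proton leak, 3 were higher in each sorted group, with 1 lower in PFGC (2 with the replicate number as a block) and 2 in Oocyte. The adenine nucleotide carrier Slc25a5 was 0.50 and 0.76 above SSC (adjusted p = 0.0261 and 0.00235), and the channel Vdac3 was -0.86 and -1.10 (adjusted p = 6.14e-04 and 8.16e-05).

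Of 14 measured regulators of mitochondrial biogenesis, 3 were higher and 5 lower in PFGC, and 3 higher and 6 lower in Oocyte, against SSC. Ppargc1b, a coactivator of respiratory genes, read 5.28, 4.94 and 4.63 in SSC, 7.22, 6.37 and 6.92 in PFGC and 6.95, 7.19 and 7.28 in Oocyte, or 1.89 and 2.19 above SSC (adjusted p = 6.8e-05 and 1.55e-05, limma). Its levels on SSC 2 and 3 were near background, which limits the size of these differences. Gabpa, the ETS-family factor of respiratory promoters, was -1.22 and -1.44 (adjusted p = 8.56e-04 and 2.08e-04). Nrf1, the gene of the factor whose core element was counted above, was -0.21 and -0.15 with no call (adjusted p = 0.165 and 0.296). Of 11 measured hypoxia response genes 4 were higher and 2 lower in PFGC, and 5 higher and 2 lower in Oocyte, than in SSC, and 2 were higher in Oocyte than in PFGC. Slc2a1, the glucose transporter, was 1.35 and 1.89 above SSC (adjusted p = 3.09e-05 and 1.69e-06) and 0.54 above PFGC in Oocyte (adjusted p = 0.0395), while Pdk1, the kinase that inhibits pyruvate dehydrogenase, was -1.31 and -1.76 (adjusted p = 5.99e-05 and 4.5e-06).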

How the data were processed

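RNA of 9 samples (3 SSC, 3 PFGC, 3 Oocyte) was hybridised to single-colour Illumina arrays. Per the submitters' processing notes the authors used GenomeStudio (version: not given in the sources used here). In the deposited non-normalized table each probe has, for every array, a linear intensity and a detection p-value, as the file headers name them. A second deposited table holds the authors' processed intensity and was used as an alternative. No column belonged to samples outside the series.

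Intensities were background-corrected by normexp from detection p-values (offset 16), quantile-normalised and taken to log2 with limma 3.58.1 in R 4.3.3. Probes with detection p below 0.01 on at least 3 arrays were kept (19934 probes), and the brightest with 1 symbol stood for each gene. Symbols came from the platform annotation, updated through RefSeq GRCm38.p6 (34807 of 34885 matched). One fit with the 3 groups gave the contrasts, and the median standard error was 0.15. The fit was tested on simulated data. The number of arrays limits the precision.

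Same-numbered arrays deviated together from their group means (every correlation between 0.132 and 0.575), so the replicate number as a block is given beside results whose call it changed or whose count it moved by more than 1.5 times.

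The genes, lists and tests were chosen with earlier results of these data known. Named were the genes called in PFGC against SSC or Oocyte against PFGC, the 10 largest calls each way in Oocyte against SSC, isoform partners, defining subunits, genes whose probes disagreed, and up to 3 called genes of each further list. Further genes (Ndufs3, Ndufaf5, Sdhc, Cox5a, CYTB, Nrf1 and the remaining calls in Oocyte against SSC) and the NRF1 and ETS elements were chosen after values were seen.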

Additional observations from a re-analysis of the deposited data

How the results depend on the processing

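Of the 129 differences named by the rule, 0 reversed a call in any of the 22 alternatives. Of them 75 stayed on the same side of the threshold throughout, 33 lost a call in at least 1 alternative and 21 gained 1. Of the calls among the 84 genes, 12 of 19 (PFGC against SSC), 19 of 46 (Oocyte against SSC) and 2 of 16 (Oocyte against PFGC) remained under every alternative. For Oocyte against PFGC the count of 16 became 5 without normalisation (4 lower, 1 higher), 27 without background correction or with the authors' processed intensity (26 lower, 1 higher each), 27 with trend and robust moderation (27 lower), 35 with array weights (34 lower, 1 higher) and 31 with the replicate number as a block (30 lower, 1 higher), and 1 gene was higher when only these 2 groups were fitted. Leaving out 1 array gave 2 to 20 calls, of which 2 to 20 were lower and 0 to 1 higher. For Oocyte against SSC the count of 46 became 24 without normalisation, and 3 to 5 genes were higher when 1 array was left out. Without normalisation 18 were lower (21.4%), against 22.7% of all genes. For PFGC against SSC the 12 lower calls became 20 without background correction or with the processed intensity and 19 with the replicate block, the 7 higher calls became 4 without the filter on dim probes, and 3 to 7 were higher when 1 array was left out. The block moved no other count over the 84 genes together by more than 1.5 times; its counts by complex and list stand beside theirs. Without normalisation the medians moved to -0.19 (Oocyte against SSC) and -0.03 (Oocyte against PFGC), and medians of all genes to 0.08 and 0.24. Relative to all genes the median of the 84 stayed between -0.32 and -0.24, and between -0.35 and -0.25, over all settings, and between -0.08 and 0.02 for PFGC against SSC. The cause of these changes was not tested. Where a group had lost an array, the remaining 2 were fitted with the spread of all groups. Signal near background limits Cox4i2, Ndufb4 and Sdhd, which were not detected on every array. It also limits Ppargc1b in SSC and Tnp1 in PFGC, of the further lists.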
